A study of Homo sapiens with 9 samples.

Results

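The HOX genes were taken as every gene whose single symbol in the platform's probe table is HOX, a cluster letter from A to D and a number. The rule found 28 genes, read by 44 probe sets, among the 19775 genes tested. The human gene table used for names lists 39 such symbols. Measured here were 1 of 11 HOXA genes (HOXA2), 10 of 10 HOXB genes, 9 of 9 HOXC genes and 8 of 9 HOXD genes. The other 10 HOXA genes and HOXD3 were not analysed here, so the family is described mainly through clusters B, C and D. HOXA10 and HOXA11, which the uterine lining is known to use, are among the genes not analysed.

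HOX genes encode homeodomain transcription factors that give cells their position along the body axis. They lie in clusters, and paralogs of low number sit at the end that is switched on first and furthest forward in the embryo, while those of high number act further back. Polycomb complexes keep the clusters silent, trithorax and MLL complexes keep them active, retinoic acid turns on the low-numbered genes, and the proteins bind DNA beside PBX and MEIS partners. In the female reproductive tract members of high number pattern the oviduct, uterus and cervix, and several stay on in the adult endometrium.

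Hec50 is an established line of endometrial cancer cells. Total RNA was hybridised to 9 Affymetrix arrays in 3 groups of 3. The first group had received a miR-200c mimic at 60 nM for 48 h, the second a scrambled negative control at the same dose and time, and the third was mock transfected, with neither dose nor time in the labels. All groups are of 1 cell line in the same medium, and nothing in the labels marks the replicates as separate cultures. The p-values therefore speak for the spread among these arrays alone, and that spread may be technical. The study put this microRNA back into an aggressive line to see which genes respond.

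The mimic carries the sequence that defines the treatment, so the mature strand is shown with its seed, bases 2 to 8, in capitals. It is the RefSeq entry on GRCh38.p14 (chr12:6963742-6963764, plus strand), and the labels do not say which strand of the hairpin the mimic copies.
hsa-miR-200c-3p: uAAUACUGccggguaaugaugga
The best known targets of this seed are ZEB1 and ZEB2, repressors that bind CACCTG boxes and hold down CDH1, the gene of E-cadherin. ZEB1 averaged 2.41-fold lower with the mimic than in the scrambled control (log2 change -1.27, SE 0.059, limma adjusted p = 4.38e-07) and CDH1 9.57-fold higher (log2 change 3.26, SE 0.12, limma adjusted p = 9.82e-08). These changes set the scale for the HOX genes, whose largest change on the same scale in any comparison was -0.34.

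The values are log2 expression with each probe set centred on its own median over the 9 arrays, so 0 is that median and only differences can be read. The level behind the centring could be placed in broad classes. Of the HOX genes, 9 had a probe set at 8 or more on the log2 scale and 16 reached the class from 4 to 8. The other 3 (HOXB9, HOXD11 and HOXD12) were placed below 4. The placing of HOXB9 is doubtful. Its probe sets hold values near 0 that are stored with few digits (-0.000795 and 0.000474), which alone can give the lowest class. The same holds for the second probe set of HOXB6 (-0.000352), which its gene value did not use. The 9 were HOXB2, HOXB3, HOXB4, HOXB5, HOXB7, HOXC4, HOXC6, HOXC10 and HOXD4, though for HOXD4 the class is doubtful. No background signal is given, and a low class does not mean an absent transcript. Marker genes fit the labelled line in part: 5 of 7 epithelial markers reached 8, CDH1 and KRT19 did not, and none of 4 leukocyte or 3 endothelial markers did, with PTPRC and CDH5 below 4. Of 4 fibroblast markers, COL1A1 and COL1A2 reached 8 and DCN and LUM did not.

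Against the scrambled control, 3 HOX genes were lower with the mimic and 0 were higher. The 3 were HOXC13, HOXB3 and HOXA2, which limma called at an adjusted p under 0.05 over all 19775 genes. This is 10.7% of the 28 members, beside a background of 6.82% of all genes called lower and 7.39% called higher. At an unadjusted p under 0.05 limma found 7 HOX genes, beside 26.3% of all genes. With 28 members 1 gene makes 3.57%, so neither the 10.7% nor the 0 is read as departing from the background. In RNA from whole cultures, fewer cells that express a gene and less RNA per cell cannot be told apart.

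HOXC13 is the last gene of its cluster and is known for its role in hair and nail keratin expression. Its values were -0.29, -0.31 and -0.31 in the mimic arrays, 0.084, 0.012 and 0.019 in the scrambled control arrays, and -0.079, 0 and 0.10 in the mock arrays. The mimic arrays lie together below all 6 others, and the scrambled control and mock arrays overlap. The gene was 1.27-fold lower with the mimic than in the scrambled control (log2 change -0.34, SE 0.052, limma adjusted p = 0.00123). Against mock it was 1.24-fold lower (log2 change -0.31, SE 0.052, limma adjusted p = 0.00197). The scrambled control differed from mock by 0.030, with a 95% interval of -0.085 to 0.15. This is the largest change and the tightest mimic group among the HOX genes called, with an SD of 0.010 over the 3 arrays. The gene is read by 1 probe set, of a type that can share sequence with other transcripts. It lies in the class from 4 to 8, which also held 3 of the 4 leukocyte markers and 2 of the 3 endothelial markers. The class therefore does not show a signal over background.

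HOXB3 acts in the developing hindbrain and is also expressed in blood precursors. Its values were -0.13, -0.15 and -0.21 in the mimic arrays, 0.086, 0.19 and 0.060 in the scrambled control arrays, and -0.045, 0 and 0.089 in the mock arrays. All 3 mimic arrays lie below the other 6. It was 1.21-fold lower than with the scrambled control (log2 change -0.27, SE 0.054, limma adjusted p = 0.00591) and 1.13-fold lower than with mock (log2 change -0.18, SE 0.054, limma adjusted p = 0.0452). The call against mock is fragile: leaving out mock replicate 2 or 3, scrambled control replicate 1 or 3, or any mimic replicate gave adjusted p from 0.0538 to 0.147. It passed in 5 of 16 alternatives, against 16 of 16 for the comparison with the scrambled control.

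HOXB3 has a second probe set, in the class from 4 to 8, that the gene's value did not use. It read -0.042, -0.18 and -0.18 in the mimic arrays, 0, 0.057 and 0 in the scrambled control arrays, and 0.17, 0.043 and 0.19 in the mock arrays. Here too every mimic array lies below every other array. The size of the difference is ordered the other way: -0.16 against the scrambled control (adjusted p = 0.151 over all probe sets, limma) and -0.27 against mock (adjusted p = 0.0135). Both probe sets are thus lower with the mimic, and each passed in a different comparison when every probe set was tested on its own.

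HOXA2, the patterning gene of the second branchial arch, is the only HOXA gene measured. Its values were -0.0031, -0.21 and -0.26 in the mimic arrays, 0.11, 0 and 0.085 in the scrambled control arrays, and 0, 0.075 and 0.030 in the mock arrays. Mimic replicate 1 stands with the controls, though just below the lowest of them, and the other 2 mimic arrays stand well below. The gene was 1.17-fold lower with the mimic than in the scrambled control (log2 change -0.22, SE 0.066, limma adjusted p = 0.0481), and the difference from mock was -0.19 (limma adjusted p = 0.0709). Leaving out any 1 array other than mimic replicate 1 raised the adjusted p against the scrambled control to between 0.0586 and 0.159, and without mimic replicate 1 it was 0.00562. In all, 3 of 15 alternatives passed.

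**Figure D1:**
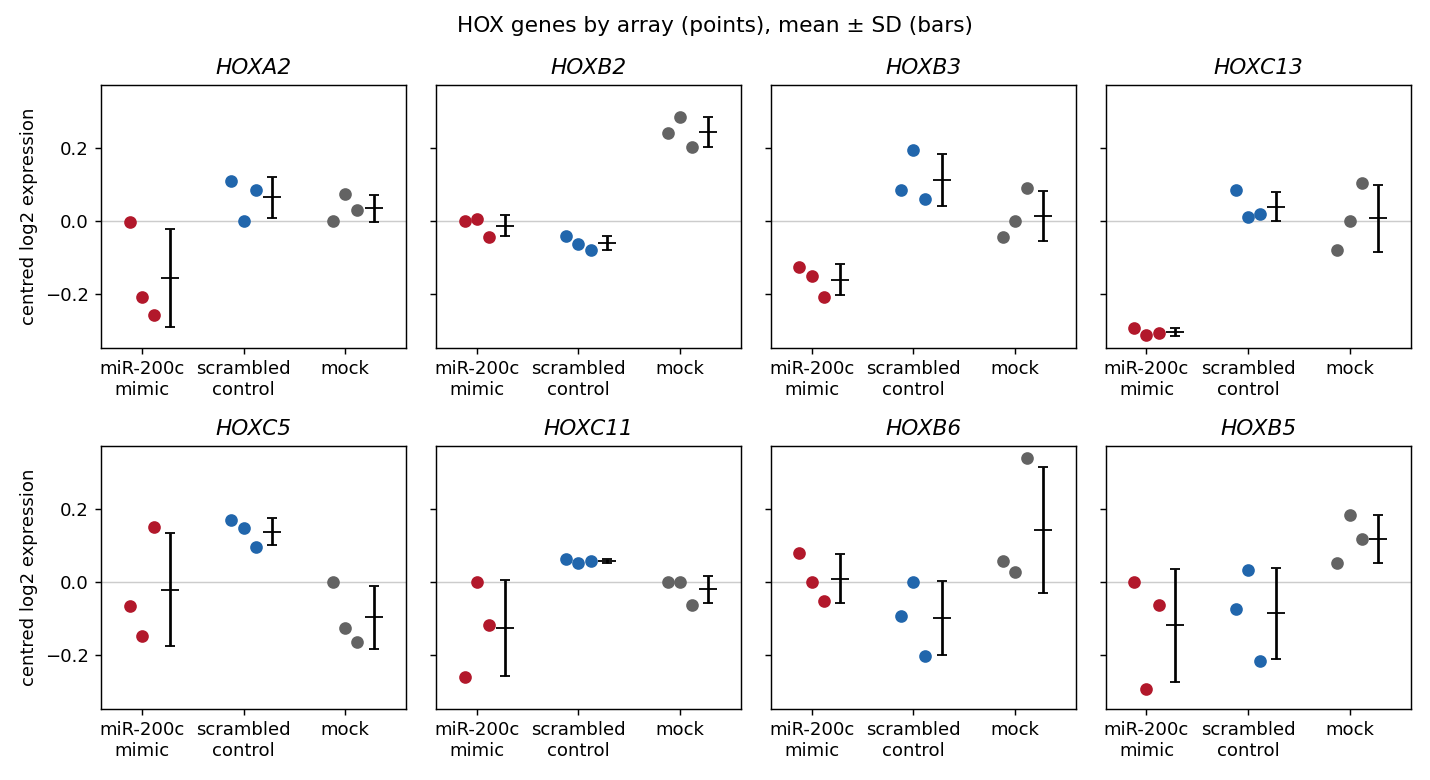
Centred log2 expression of 8 HOX genes, 1 panel each, with the 3 arrays of the miR-200c mimic, scrambled control and mock groups as points and the mean ± SD (n = 3) as bars. The upper row holds the 4 genes called in any comparison: HOXC13 and HOXB3 are lower in all mimic arrays, HOXA2 in 2 of them, and HOXB2 is higher in the mock arrays; the lower row holds the 4 uncalled genes with the smallest p.

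HOXB2 gave a different pattern. It is a hindbrain gene that in mice is needed for facial motor neurons. Its values were 0, 0.0066 and -0.044 in the mimic arrays, -0.040, -0.062 and -0.080 in the scrambled control arrays, and 0.24, 0.29 and 0.20 in the mock arrays. The mock arrays stand above all 6 arrays of cells that received a small RNA, and the mimic and scrambled control arrays overlap. Against mock it was 1.19-fold lower with the mimic (log2 change -0.26, SE 0.043, limma adjusted p = 0.0020) and 1.23-fold lower with the scrambled control (log2 change -0.30, SE 0.043, limma adjusted p = 0.00302). The mimic differed from the scrambled control by 0.048, with a 95% interval of -0.047 to 0.14. Both calls against mock passed in 16 of 16 alternatives.

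The control probe sets for ACTB also set the mock arrays apart. The difference between the 3′ and 5′ ends of the ACTB transcript, centred in the same way, was 0.016 ± 0.084 in mimic arrays, 0.099 ± 0.036 in scrambled control arrays and -0.18 ± 0.027 in mock arrays (SD, n = 3 each). For GAPDH it was -0.015 ± 0.035, 0.0073 ± 0.023 and 0.027 ± 0.035 in the same order. Their part in the HOXB2 result was not tested.

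Against mock, 3 HOX genes (HOXB2, HOXB3 and HOXC13) were lower with the mimic and 0 higher. The share is again 10.7%, beside 10.1% of all genes called lower and 8.19% called higher, and 5 had an unadjusted p under 0.05, beside 30.6%. With the scrambled control against mock, 1 HOX gene (HOXB2) was lower, which is 3.57% of the members beside 5.11% of all genes, and 0 were higher beside 2.63%. There 5 had an unadjusted p under 0.05, beside 24.0%. Comparisons that share a group share its arrays, so HOXC13 and HOXB3 against both controls rest on the same 3 mimic arrays, and both HOXB2 calls rest on the same 3 mock arrays.

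Of the 28 HOX genes, 15 had a negative and 13 a positive log2 change with the mimic against the scrambled control, with a median of -0.027 beside -0.0096 over all genes. The median size of the change, without its sign, was 0.093 for HOX genes and 0.076 for all genes. Against mock 19 HOX genes had a negative and 9 a positive change, where all genes had 9103 negative and 10672 positive. The medians there were -0.033 for HOX genes and 0.012 for all genes, with sizes of 0.054 and 0.084, and leaving out 1 array moved the HOX median between -0.042 and -0.015. For the scrambled control against mock they were 0.0043 and 0.017, with sizes of 0.096 and 0.076. The HOX medians against the scrambled control and between the controls are too small to carry a sign: leaving out 1 array moved the first between -0.049 and 0.0081, and the last between -0.0096 and 0.022.

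The members varied about as much between replicates as other genes did. The median replicate SD of HOX genes was 0.076 in the mimic, 0.056 in the scrambled control and 0.052 in the mock group, against 0.068, 0.061 and 0.059 for all genes. The widest spreads were HOXC9 in the scrambled control group, with an SD of 0.31, HOXD4 in the mock group (0.18) and HOXB9 in the mimic group (0.18). For HOXC9 this comes from scrambled control replicate 2 at -0.49, with the other 2 at 0.027 and 0.072.

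**Figure D2:**
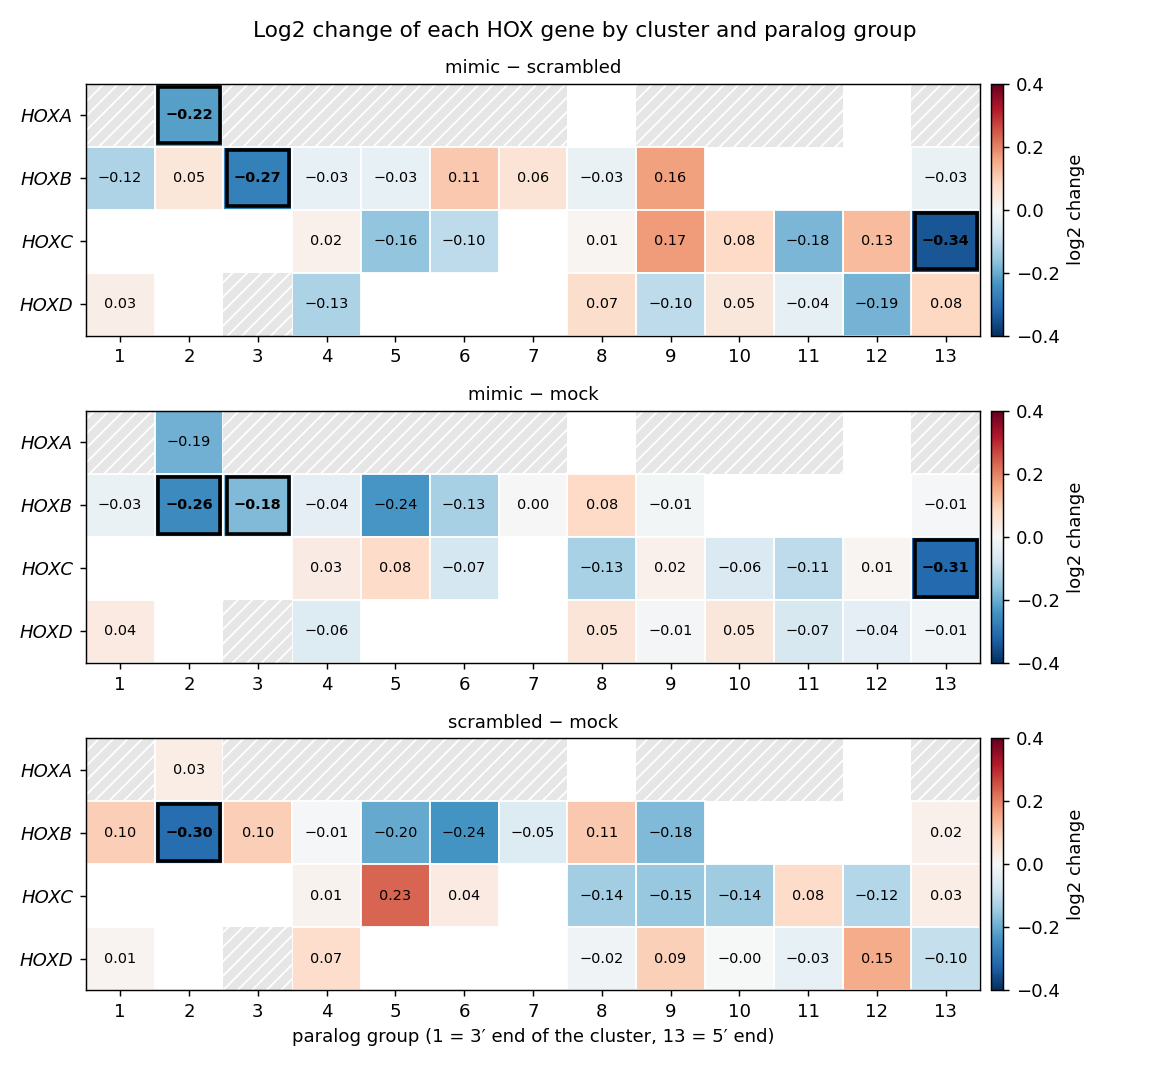
Log2 change of each HOX gene by cluster (rows) and paralog group (columns, from 1 to 13), for mimic minus scrambled control, mimic minus mock and scrambled control minus mock; thick frames mark genes with a limma adjusted p under 0.05, hatched cells are genes not analysed here and blank cells are positions where the gene table lists no gene. The called genes are HOXA2, HOXB2, HOXB3 and HOXC13, all with negative changes.

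By position along the clusters, the anterior paralog groups 1 to 3 held 3 of the 4 called genes, HOXA2, HOXB2 and HOXB3. Of the 5 anterior members measured, 2 were lower with the mimic against the scrambled control, 2 against mock, and 1 was lower with the scrambled control against mock, where all genes had 6.82%, 10.1% and 5.11% called lower. With 5 members these counts are a description and are not read as particular to the anterior groups. Their median log2 changes were -0.12, -0.18 and 0.029 in that order. HOXB1, which specifies a hindbrain segment, had -0.041, -0.078 and -0.058 in the mimic arrays, 0.036, 0.13 and 0.035 in the scrambled control arrays, and 0.011, -0.043 and -0.062 in the mock arrays. Its mimic arrays lie below the scrambled control arrays and overlap the mock arrays, and the difference from the scrambled control did not pass (log2 change -0.12, limma adjusted p = 0.101). HOXD1, the remaining anterior member, differed by 0.027 from the scrambled control and by 0.037 from mock.

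The central groups 4 to 8, with 11 members, had 0 calls in any of the 3 comparisons. Of all genes, 6.82% were called lower and 7.39% higher with the mimic against the scrambled control, and 10.1% and 8.19% against mock. Between the controls 5.11% were lower and 2.63% higher. With 11 members the 0 is a description alone. Their log2 changes with the mimic ran from -0.16 to 0.11 against the scrambled control and from -0.24 to 0.079 against mock. HOXC5, a gene of the neck and shoulder region in the embryo, had -0.068, -0.15 and 0.15 in the mimic arrays, 0.17, 0.15 and 0.10 in the scrambled control arrays, and 0, -0.13 and -0.17 in the mock arrays. All scrambled control arrays lie above all mock arrays, and the mimic arrays span both (scrambled control minus mock 0.23, limma adjusted p = 0.0847).

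HOXB5, known for its part in the enteric nervous system, had 0, -0.29 and -0.065 in the mimic arrays, -0.074, 0.032 and -0.22 in the scrambled control arrays, and 0.050, 0.18 and 0.12 in the mock arrays. The mock arrays lie above all others. The changes against mock did not pass in limma, at -0.24 with the mimic (adjusted p = 0.0767) and -0.20 with the scrambled control (adjusted p = 0.166). Its second probe set gave -0.24 for the mimic against mock as well, which passed when tested alone (adjusted p = 0.0420 over all probe sets, limma), and -0.041 for the scrambled control against mock. In that probe set, which the gene's value did not use, every mimic array lies below every other array. The mimic there differed by -0.20 from the scrambled control (adjusted p = 0.103 over all probe sets, limma), beside -0.033 in the gene's value. The probe set behind the gene's value is of a type that can share sequence with other transcripts. The gene's change against mock passed in 3 of 15 alternatives: with both probe sets averaged (adjusted p = 0.0309), among genes of the top level class alone (0.0365), and with mimic replicate 1 left out (0.0465).

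HOXB6, its neighbour, had 0.079, 0 and -0.053 in the mimic arrays, -0.095, 0 and -0.20 in the scrambled control arrays, and 0.058, 0.025 and 0.34 in the mock arrays. Mock replicate 3 is far above the other 2. The scrambled control arrays lie below the mock arrays, with a difference of -0.24 (limma adjusted p = 0.110).

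The posterior groups 9 to 13, which include the genes of limb, trunk and urogenital patterning, had 1 call (HOXC13) against each control among 12 members and 0 between the controls. The 1 call, a lower one, is 8.33% of the members, beside 6.82% of all genes lower against the scrambled control and 10.1% against mock. The 0 higher stands beside 7.39% and 8.19%, and between the controls 5.11% of all genes were lower and 2.63% higher. The median log2 change of the posterior groups was 0.0093 against the scrambled control and -0.013 against mock. HOXC11 had -0.26, 0 and -0.12 in the mimic arrays, 0.062, 0.052 and 0.057 in the scrambled control arrays, and 0, 0 and -0.063 in the mock arrays. The mimic arrays lie below the scrambled control arrays and overlap the mock arrays (mimic minus scrambled control -0.18, limma adjusted p = 0.0762). HOXC13 and HOXC11 are members of 1 cluster, and HOXC12, the gene that lies between them, had a difference of 0.13 with a 95% interval of -0.041 to 0.29.

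HOXD13, which patterns digits and the genital tract, has probe sets that differ in sign and in call. Its gene value differed by 0.082 from the scrambled control (limma adjusted p = 0.572). Tested alone, 1 of its 3 probe sets was higher with the mimic: 0.40, 0.052 and 0 in the mimic arrays, -0.23, -0.14 and -0.31 in the scrambled control arrays, and 0, -0.24 and 0.026 in the mock arrays. The difference was 0.38 (adjusted p = 0.0483 over all probe sets, limma), while its other 2 probe sets gave -0.11 and -0.021.

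Of the 13 HOX genes with more than 1 probe set, 11 had probe sets of opposite sign in at least 1 comparison. For 9 of these no probe set passed alone, and their changes ran from -0.52 to 0.24 against the scrambled control and from -0.15 to 0.21 against mock. The low end belongs to the second probe set of HOXB8, below 4 in level, which read 0.52, -0.28 and -0.21 in the mimic arrays, 0, 1.74 and -0.15 in the scrambled control arrays, and -0.29, 0 and 0.76 in the mock arrays. Its replicates spread more widely than its groups differ.

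The 8 HOXD genes had 0 calls in any comparison, with changes from -0.19 to 0.082 against the scrambled control and from -0.068 to 0.053 against mock. Of all genes 6.82% were called lower and 7.39% higher against the scrambled control, and 10.1% and 8.19% against mock. Between the controls the shares were 5.11% and 2.63%. With 8 members the 0 is a description alone.

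**Figure D3:**
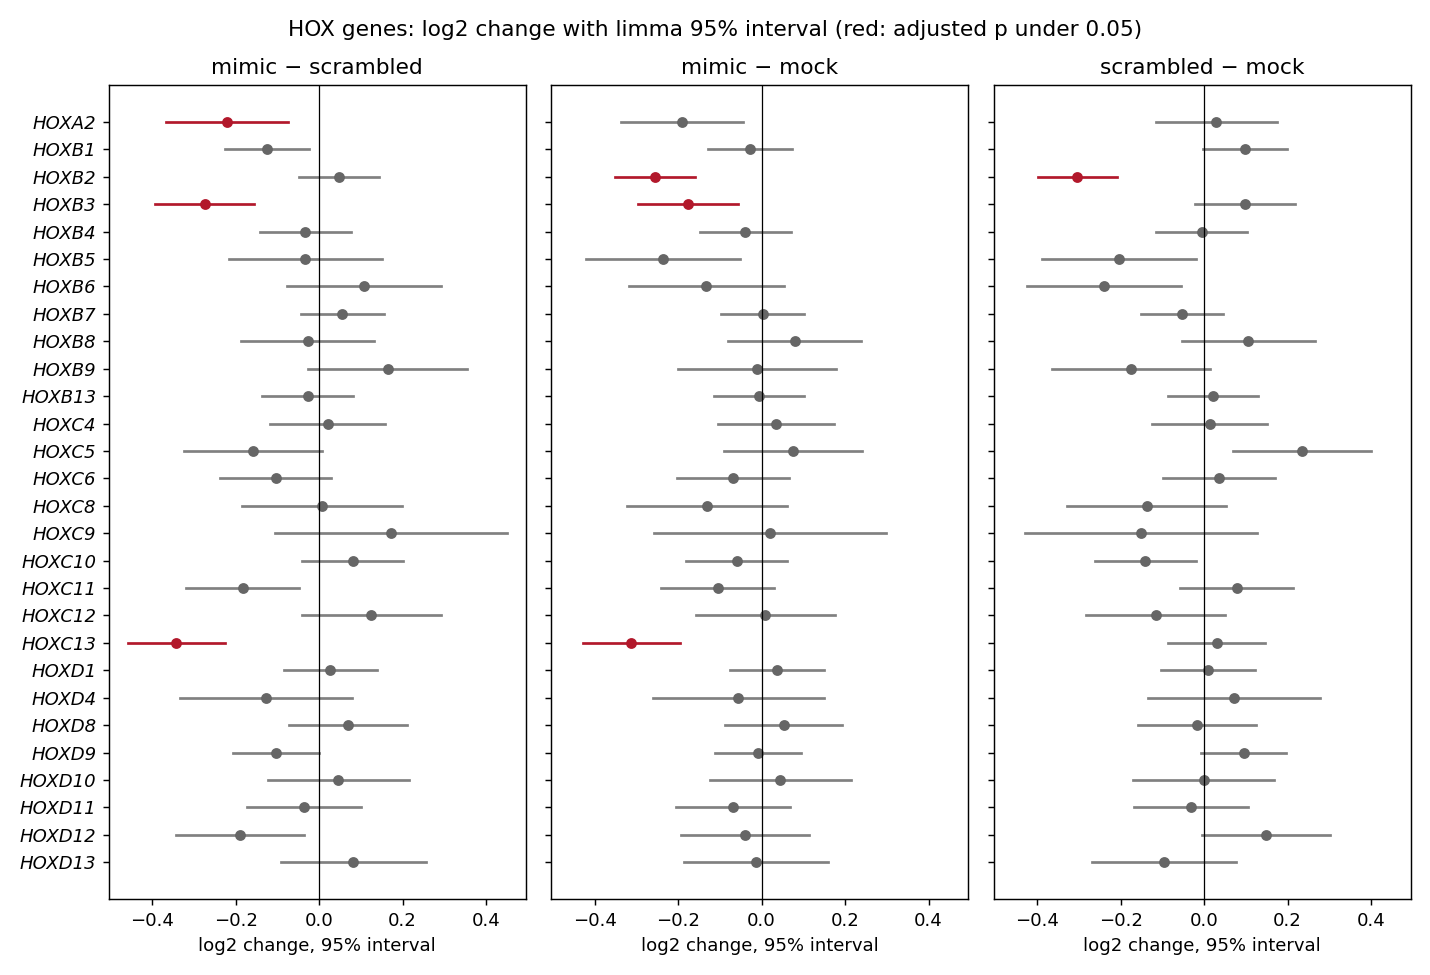
Log2 change of the 28 HOX genes with the limma 95% interval, for mimic minus scrambled control, mimic minus mock and scrambled control minus mock; red marks an adjusted p under 0.05. The called genes are HOXA2, HOXB3 and HOXC13 in the left panel, HOXB2, HOXB3 and HOXC13 in the middle one and HOXB2 in the right one.

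Counting groups that do not overlap gives a looser view. The mimic arrays lay below all scrambled control arrays for 5 HOX genes (HOXA2, HOXB1, HOXB3, HOXC11 and HOXC13) and above them for 0, beside 15.1% and 14.4% of all genes. Against mock they lay below for 5 (HOXA2, HOXB2, HOXB3, HOXB5 and HOXC13) and above for 0, beside 17.4% and 16.8%. The scrambled control arrays lay below mock for 6 and above for 4, beside 15.1% and 14.9%. The shares lying below are near those of all genes. The 0 lying above with the mimic is under the 14.4% and 16.8% of all genes, and in so few members it is a description alone.

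The intervals show what 3 arrays a group can resolve. For the 25 HOX genes that did not pass against the scrambled control, the 95% intervals lay within -0.34 and 0.45. The widest belonged to HOXC9 (-0.11 to 0.45) and the interval of HOXB7, a gene studied in breast cancer, was -0.043 to 0.15.

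The promoter of HOXA2 is shown because HOXA2 is the only called HOX gene with an entry in the promoter table. These are the 250 bases before its start from RefSeq on GRCh38.p14 (chr7:27102684-27102933, minus strand, written 5′ to 3′ along the gene), with a PBX-HOX motif in capitals.
HOXA2: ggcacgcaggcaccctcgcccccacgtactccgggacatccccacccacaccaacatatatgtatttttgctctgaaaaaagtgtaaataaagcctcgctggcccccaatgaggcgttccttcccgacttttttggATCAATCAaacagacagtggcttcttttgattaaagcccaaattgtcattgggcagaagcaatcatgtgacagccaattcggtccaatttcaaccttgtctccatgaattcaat
The motif searched was TGATNNAT on both strands, where N is any base. It occurs in the same window of 7.91% of 27305 genes and of 3 of the 11 HOX genes with an entry (HOXA2, HOXB1 and HOXD11). The ZEB box CAGGTG, searched on both strands, is found in 20.6% of genes and in 0 of those 11 HOX genes. These letters are a description of the window alone. HOXB2, HOXB3 and HOXC13 have no entry.

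Genes around the family were read from lists of its known regulators, partners and neighbours. Retinoic acid, which activates anterior HOX genes, had 19 of 22 listed genes measured. Against the scrambled control 2 were higher and 2 lower with the mimic, and against mock 1 was higher and 3 lower. These are 10.5% in each direction, beside 7.39% higher and 6.82% lower of all genes, and 5.26% and 15.8%, beside 8.19% and 10.1%. The list's median log2 change was 0.056 and 0.025, beside -0.0096 and 0.012 over all genes. RDH10, the enzyme that makes retinaldehyde from retinol, had -0.62, -0.73 and -0.67 in the mimic arrays, 0, 0.084 and -0.039 in the scrambled control arrays, and 0.021, 0.13 and 0.21 in the mock arrays. It was 1.61-fold lower than with the scrambled control (log2 change -0.69, SE 0.059, limma adjusted p = 2.75e-05), and the change against mock was -0.80. Of its 4 probe sets 3 were called lower in each of these comparisons.

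ALDH1A1, which oxidises retinaldehyde to retinoic acid, had -0.17, -0.24 and -0.33 in the mimic arrays, -0.090, 0.11 and 0.0045 in the scrambled control arrays, and 0, 0.074 and 0.11 in the mock arrays. Every mimic array lies below every other array (mimic minus scrambled control -0.25, limma adjusted p = 0.0206). CYP26A1, which breaks retinoic acid down and is itself induced by it, had 0.43, 0.25 and 0.20 in the mimic arrays, 0.076, 0 and -0.0097 in the scrambled control arrays, and -0.027, -0.050 and -0.077 in the mock arrays. It was higher in all mimic arrays (log2 change 0.27 against the scrambled control, limma adjusted p = 0.0120). TGM2, another gene that retinoic acid induces, was higher against the scrambled control (log2 change 0.38, limma adjusted p = 0.0014) but not against mock (0.094), and it was lower with the scrambled control than with mock (-0.29, limma adjusted p = 0.0166). DHRS3, also on this list, went the other way from CYP26A1 and TGM2 with the mimic. Its 1 probe set was called lower against mock (-0.30) and differed by -0.25 from the scrambled control, which was not called.

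Of 27 measured polycomb genes (31 listed), 2 were higher and 2 lower with the mimic against the scrambled control, and 4 and 4 against mock. These are 7.41% in each direction, beside 7.39% higher and 6.82% lower of all genes, and 14.8%, beside 8.19% and 10.1%. The list's median was 0.022 and -0.0065. PHC1, a subunit of canonical PRC1, had -0.28, -0.34 and -0.35 in the mimic arrays, 0.021, 0.037 and -0.034 in the scrambled control arrays, and 0, 0.052 and 0.018 in the mock arrays. The mimic arrays lie apart below the rest (log2 change -0.33, SE 0.044, limma adjusted p = 0.000476). PCGF6, a subunit of a variant PRC1, was also lower, with log2 changes of -0.35 against the scrambled control (limma adjusted p = 0.00483) and -0.47 against mock. PCGF5 was higher against both, at 0.24 and 0.31. PCGF1 was higher by 0.18 against the scrambled control and differed by -0.0065 from mock.

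Of 19 measured trithorax and MLL genes (20 listed), 1 was higher and 2 were lower against the scrambled control, and 2 and 4 against mock. These are 5.26% and 10.5%, beside 7.39% and 6.82% of all genes, and 10.5% and 21.1%, beside 8.19% and 10.1%. The list's median was -0.019 and -0.078. PSIP1, the chromatin tether that brings the MLL complex to HOX genes, had -0.29, -0.36 and -0.39 in the mimic arrays, -0.046, 0.044 and 0.022 in the scrambled control arrays, and -0.020, 0.043 and 0.10 in the mock arrays. Its mimic arrays lie below all others (log2 change -0.35, SE 0.050, limma adjusted p = 0.000738). Of its 4 probe sets 2 were called lower against each control, and against the scrambled control they ran from -0.36 to 0.091. KDM6A, which removes the polycomb mark, had 0.18, 0.21 and 0.19 in the mimic arrays, -0.061, 0.026 and 0.012 in the scrambled control arrays, and -0.22, -0.14 and -0.13 in the mock arrays. It was higher with the mimic by 0.20 against the scrambled control (limma adjusted p = 0.0122) and by 0.36 against mock. KMT2D, an enhancer methyltransferase, was lower against both (log2 changes -0.18 and -0.23). Of its 6 probe sets only 1 was called lower in each comparison, and against mock they ran from -0.40 to 0.17.

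The DNA-binding partners had 0 calls in either direction against the scrambled control among 10 measured (11 listed), with changes from -0.12 to 0.081 and a median of -0.051, where all genes had 7.39% higher and 6.82% lower. Against mock the median was -0.022 and 1 member was called in each direction, 10.0% beside 8.19% higher and 10.1% lower of all genes. GMNN, which encodes geminin and can bind HOX proteins, was higher by 0.17 (limma adjusted p = 0.0191) and PBX4 was lower (log2 change -0.22, limma adjusted p = 0.0493). The PBX4 call is borderline, and its 1 probe set was not called when every probe set was tested on its own. PBX4 had -0.22, 0 and -0.087 in the mimic arrays and 0.12, 0.22 and 0 in the mock arrays, so the groups touch. MEIS2 was higher with the scrambled control than with mock (0.21, limma adjusted p = 0.0285).

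**Figure D4:**
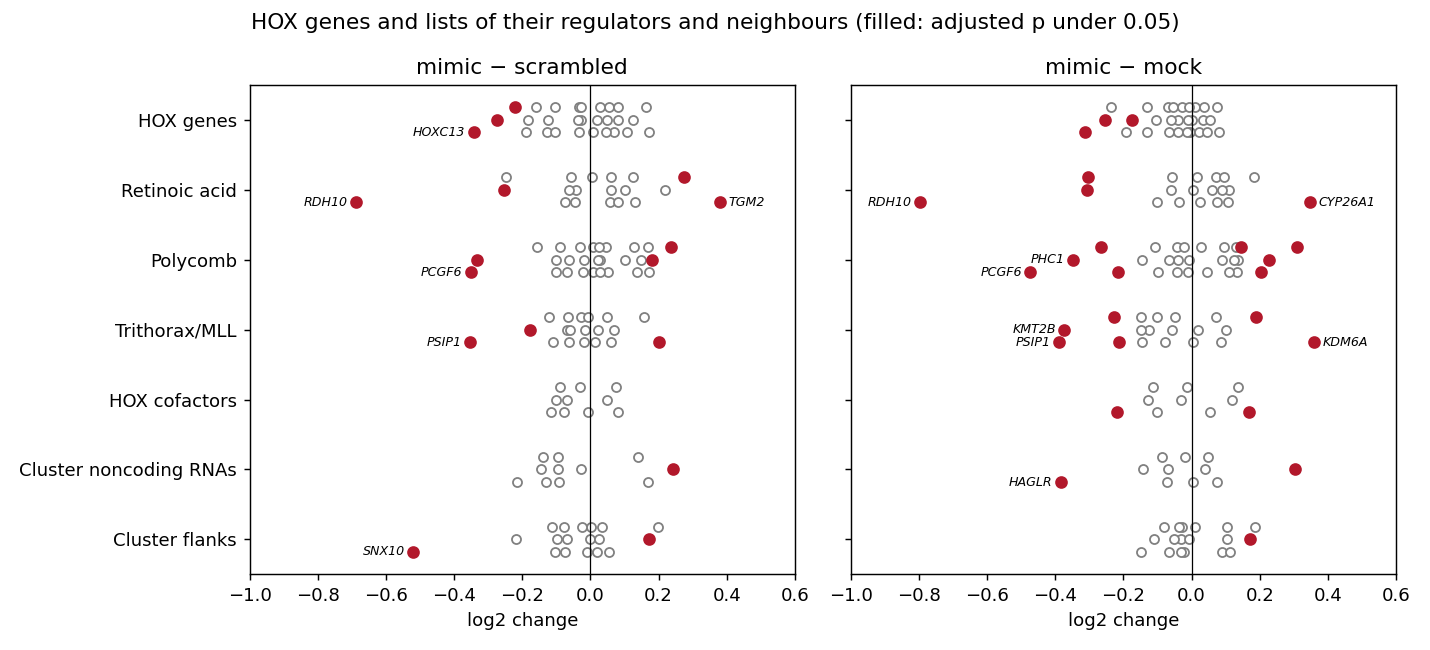
Log2 change of each HOX gene and of each measured gene in 6 lists of regulators, partners and neighbours, for mimic minus scrambled control (left) and mimic minus mock (right); filled points have a limma adjusted p under 0.05 and the largest of these carry names. RDH10 lies furthest from 0 in both panels, at -0.69 and -0.80.

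Within the clusters, 11 of 19 listed noncoding RNAs were measured. Against the scrambled control 1 was higher and 0 lower (9.09% and 0, beside 7.39% and 6.82% of all genes), and against mock 1 was higher and 1 lower (9.09% each, beside 8.19% and 10.1%). HOXA-AS2, an antisense RNA of the HOXA cluster, had 0.29, 0.34 and 0.15 in the mimic arrays, -0.0072, 0 and 0.064 in the scrambled control arrays, and -0.070, -0.0029 and -0.054 in the mock arrays. It was higher with the mimic against both (log2 changes 0.24 and 0.30, limma adjusted p = 0.0132 and 0.00313), in 1 of its 3 probe sets. HAGLR, which lies in the HOXD cluster, was lower against mock (-0.38, limma adjusted p = 0.00286), also in 1 of 3 probe sets, and differed by -0.21 from the scrambled control (limma adjusted p = 0.0637). Whether RNA of a sense neighbour adds to these probe sets was not tested. The median over the list was -0.094 against the scrambled control and -0.018 against mock.

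Of 18 measured genes that flank the clusters (20 listed), 1 was higher and 1 lower against the scrambled control (5.56% each, beside 7.39% and 6.82% of all genes). Against mock 1 was higher and 0 lower (5.56% and 0, beside 8.19% and 10.1% of all genes). The list's median was -0.018 and -0.026. SNX10, a sorting nexin beside the HOXA cluster, had -0.20, -0.048 and -0.19 in the mimic arrays, 0.40, 0.31 and 0.40 in the scrambled control arrays, and -0.034, 0 and 0.041 in the mock arrays. The scrambled control arrays stand above the other 6, so the gene was lower with the mimic (-0.52, limma adjusted p = 9.22e-05) and higher with the scrambled control than with mock (0.37, limma adjusted p = 0.00342), while mimic and mock differed by -0.15 (limma adjusted p = 0.0846). SMUG1, a DNA repair glycosylase beside the HOXC cluster, was higher with the mimic by 0.17 against both. Of its 3 probe sets 1 was called higher against the scrambled control and 2 against mock.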

How the data were processed

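The authors deposited log2 expression, 54675 probe sets on 9 arrays, each centred on its median over the arrays (median 0 in 100.0% of probe sets). The base of the log is not stated and was taken as 2. Summarisation and normalization are not given in the sources used here. Level classes (below 4, 4 to 8, 8 or more) were read from the step size of the stored numbers (97.6% right on 6000 simulated probe sets). How often the classes are right for the stored numbers themselves was not tested. There, a number near 0 kept with few digits can alone give the lowest class. Probe sets with 1 symbol (41091) in the platform annotation of 2016 gave 19775 genes. Those with several (1801) or none (11777) were left out. A gene is the mean of its probe sets in its highest class.

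limma 3.58.1 (R 4.3.3) fitted the 3 group means over the 9 arrays (two-sided, Benjamini-Hochberg adjusted p under 0.05), after a test on simulated data. Replicates differed by an SD of 0.112 to 0.150 over genes. In a pair of replicates 2.28% to 2.93% of genes had identical values, and 48.9% of probe sets held over 1 exact 0. What these ties do to the replicate spread was not tested. The number of arrays limits the precision. Arrays were shown for called HOX genes and those with the smallest p, up to 8; list genes were named by smallest p, up to 4 against the scrambled control and 2 in each other comparison. Alternatives were the probe set rule, quantile normalization, level filters, a fit of 2 groups, a replicate block and leaving out each array. Members and lists were chosen with earlier results of these data known.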

Additional observations from a re-analysis of the deposited data

How the results depend on the processing

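In the comparison in which it was called, no HOX gene turned its direction in the 14 to 16 alternatives that held it. Of changes that were not called, those of HOXB3 and HOXC13 between the controls took both signs (-0.0087 to 0.14 and -0.013 to 0.078). HOXC13 and HOXB2 kept every call in the alternatives that held them. With each probe set on its own, 1 HOX gene was higher with the mimic against the scrambled control. With probe sets without a suffix, which drop HOXC13, 1 was lower against the scrambled control and 1 against mock. With a level of 8 or more, 1 was lower against the scrambled control. For the scrambled control against mock, quantile normalization and the fit of 2 groups each gave 1 HOX gene higher (HOXC5), and probe sets without a suffix gave 546 genes lower in all. Leaving out 1 array gave 0 HOX genes higher and 2 to 3 lower with the mimic against the scrambled control, 0 and 2 to 4 against mock, and 0 to 1 and 1 between the controls. Over all genes it gave 1109 to 1396 higher and 964 to 1280 lower, 1110 to 1554 and 1426 to 2040, and 190 to 522 and 523 to 1052. Between the controls, every mock or scrambled control array left out cut the lower count by over 1.5 times, as all but mock replicate 3 did the higher count, with the lowest counts without mock replicate 1. With the replicate number as a block, 2, 2 and 1 HOX genes were lower and 0 higher. Same-numbered arrays did not deviate together (correlations -0.155 to 0.117 over 9 pairs), so the numbers were not taken as a pairing. Signal over background is unknown, so changes near the noise of dim probe sets cannot be judged.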

Other observations

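Homeobox genes outside the clusters were also measured, 23 of 23 on a list of ParaHox and HOX-like genes. With the mimic against the scrambled control 1 was higher and 0 lower (4.35% and 0, beside 7.39% and 6.82% of all genes), and against mock 2 were higher and 2 lower (8.70% each, beside 8.19% and 10.1%). MEOX1, a gene of the embryonic somite, had 0.23, 0.30 and 0.38 in the mimic arrays, -0.12, -0.037 and -0.16 in the scrambled control arrays, and -0.032, 0 and 0 in the mock arrays, and was 1.33-fold higher than with the scrambled control (log2 change 0.41, limma adjusted p = 0.000366). GBX2, which positions the boundary between midbrain and hindbrain, set the mock arrays apart as HOXB2 did, with 0.10, -0.17 and -0.10 in the mimic arrays, -0.0048, -0.030 and 0 in the scrambled control arrays, and 0.46, 0.67 and 0.66 in the mock arrays. It was lower than mock with the mimic (log2 change -0.65, limma adjusted p = 0.000207) and with the scrambled control (-0.61, limma adjusted p = 0.00169). MSX1, a marker of endometrial epithelium, was lower with the scrambled control than with mock (log2 change -0.26). Only 1 of its 2 probe sets was called there, and the other gave 0.047.

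Of 14 genes reported downstream of HOXA10 or HOXA11 in endometrium, 2 were higher and 1 was lower with the mimic against the scrambled control, and 2 and 3 against mock. These are 14.3% and 7.14%, beside 7.39% and 6.82% of all genes, and 14.3% and 21.4%, beside 8.19% and 10.1%, with 1 gene making 7.14%. PTGER4, a prostaglandin E2 receptor, had 0.24, 0.33 and 0.37 in the mimic arrays, -0.23, -0.19 and 0 in the scrambled control arrays, and -0.19, -0.32 and 0.14 in the mock arrays. Its log2 changes were 0.45 and 0.44 (limma adjusted p = 0.0132 and 0.0139). ITGB3, the integrin subunit used as a marker of a receptive endometrium, was lower against mock (-0.37, limma adjusted p = 0.00127). It differed by -0.15 from the scrambled control, which did not pass (limma adjusted p = 0.129). With the scrambled control ITGB3 was also lower than with mock (-0.22, limma adjusted p = 0.0414). CDKN1A was higher against the scrambled control (0.33) but did not pass against mock (0.15, limma adjusted p = 0.0794). WNT5A was lower against the scrambled control (-0.25) and against mock (-0.19, limma adjusted p = 0.0212).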
